A study of Homo sapiens with 6 samples.

Results

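SOS1 encodes a guanine nucleotide exchange factor, a protein that makes Ras release GDP and take up GTP and so turns Ras on. Growth factor receptors bring it to the membrane through the adaptor GRB2, and active Ras then signals to the RAF, MEK and ERK kinases and to PI3 kinase. SOS1 also acts on the GTPase Rac, so a single protein joins receptor signalling to growth and to the actin skeleton.

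The values described here are those of the SOS1 probes of a splicing-sensitive array, which covers a gene with many probes on its exons and exon junctions. Of 45220 features (spots) in the table, 40146 were named for 843 genes, and 178 were annotated to SOS1, all under 1 RefSeq transcript. They were chosen by this annotation alone. SOS1 itself was taken up with its ratios on these arrays already known, so its UV over untreated ratios are given as a description, with no test. The annotation does not say which exon or junction a feature covers, and copies of 1 probe could not be told from different probes, so the features are not independent of each other.

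RNA came from Hep3B, a human hepatoma line known to lack p53. Irradiated cells had received 10 J/m2 of UV light and were collected 6 hours later, and untreated cells of the same line were the other channel. The 3 biological replicates were each hybridized on a direct array, with the irradiated sample in Cy5, and on a dye-swap array, with it in Cy3, which gave 6 arrays. Values are log2 ratios of UV over untreated, so a negative value means less signal in irradiated cells. Normalization was within each array, so a ratio is relative to most other features, whose median was 0.012. Ratios give no level, and of 8 hepatocyte markers none was measured, so the cell type could not be checked. In RNA of whole cultures, fewer cells that hold SOS1 RNA and less SOS1 RNA per cell cannot be told apart. The number of arrays limits the precision.

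SOS1 was lower in irradiated cells on all 6 arrays. The mean over its features was -0.93, -0.80 and -0.91 on direct arrays 1, 2 and 3, and -0.81, -0.63 and -0.77 on the dye-swap arrays of the same replicates. Every array mean was well below 0, and replicate 2 showed the smallest fall in both orientations. With both orientations averaged, the replicates had -0.87, -0.72 and -0.84, a mean of -0.81 ± 0.083 (SD, n = 3), which is 1.75-fold lower.

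The size of this fall depended on which features were averaged. Between 140 and 156 SOS1 features had a value on an array, and these were not the same features on each. Over the 123 features with a value on all 6 arrays the means were -1.05, -0.92 and -1.10 on direct arrays and -0.94, -0.79 and -0.95 on dye-swap arrays. The gene value was then -0.96 ± 0.093 (SD, n = 3), or 1.94-fold lower. Among 466 genes with 3 or more features SOS1 had the sixth lowest ratio, after MCL1 (-1.24), PRP4K (-1.07), RBM7 (-1.06), PLK2 (-0.91) and DHX15 (-0.86). With only features measured on all 6 arrays it stood at rank 4 of 462 genes with 10 or more features.

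**Figure D1:**
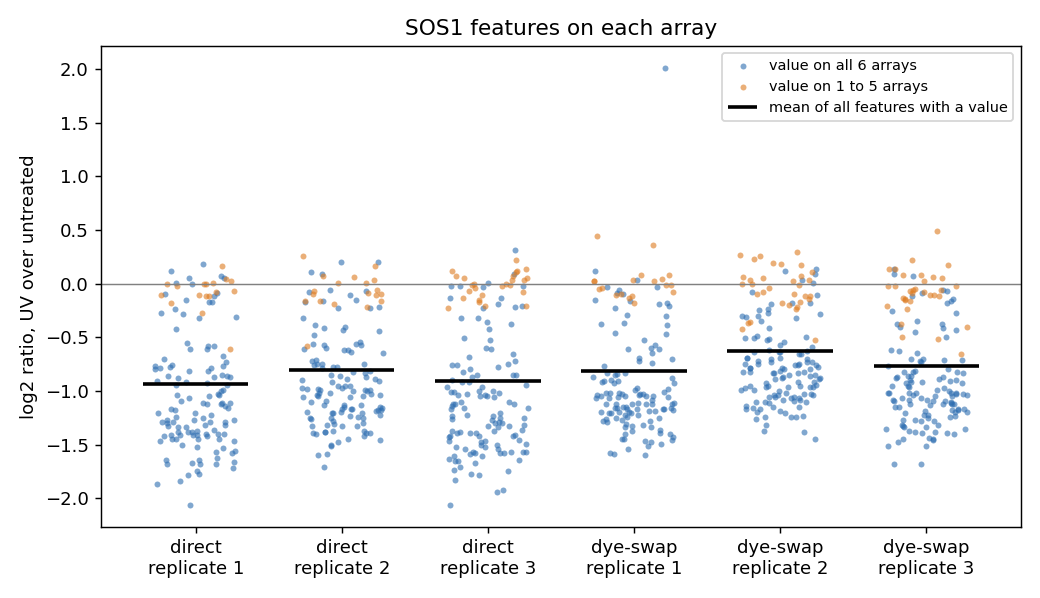
Log2 ratio of UV over untreated (vertical axis) of each SOS1 feature on the 3 direct and the 3 dye-swap arrays (horizontal axis), in blue for features with a value on all 6 arrays and in orange for those with a value on 1 to 5. Black bars are the mean over the features with a value, from -0.93 to -0.63, and the orange points lie near 0.

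Features with empty cells lay near 0. Of the 178 features, 9 were empty on all 6 arrays, 46 had a value on 1 to 5 arrays and 123 on all 6. Taking for each feature the median over the arrays that measured it, the 46 features ranged from -0.595 to 0.49 with a median of -0.020, and 1 of them (2.17%) was lower past 1.3-fold. The 123 features ranged from -1.58 to 0.010 with a median of -1.04, and 105 (85.4%) were lower past 1.3-fold. Over all named features the same shares were 2.66% of 8182 with empty cells and 12.6% of 30881 with none. The sources used here do not say what left a cell empty. Signal over background was not used here, so whether dim features had a part in this split was not tested.

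For the mean of a feature, a replicate was used where both its arrays had a value, and at least 2 such replicates were asked for, which left 135 of 178 features. Of these, 131 (97.0%) had a mean below 0, and their median was -1.003, against 0.012 over all 34301 named features treated in the same way. Past 1.3-fold, the study's fold limit for expression, 106 features (78.5%) were lower and 0 were higher, and 29 lay within it. The study used this limit on genes, together with a p-value, and here it is set on single features. Among all named features 11.7% were lower and 2.32% higher past 1.3-fold. Past 2-fold 68 SOS1 features (50.4%) were lower, against 1.72% of all named features. SOS1 was taken up for this fall, so nothing is read from these shares. Of the 123 features with 6 values, 109 (88.6%) were below 0 on each array and 0 were above 0 on each.

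The feature means formed a broad lower group and a smaller group near 0. In steps of 0.2 on the log2 scale, starting at -1.6, the first 4 bins held 12, 26, 31 and 26 features. The bins from -0.8 to -0.4 held only 5 and 4. Those from -0.4 to 0 held 10 and 17, and the last bins, above 0, held 3 and 1. At the 1.3-fold limit of -0.38 the last feature on the lower side with 6 values was 12968 at -0.39, and the first within it was 13140 at -0.36.

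**Figure D2:**
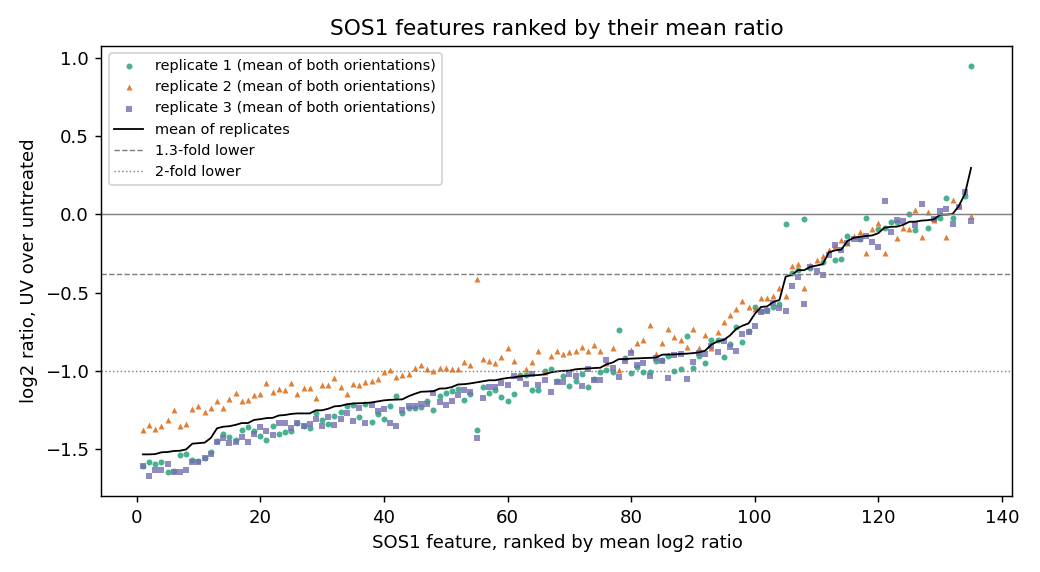
The 135 SOS1 features with 2 or more complete replicates, ranked by mean log2 ratio (horizontal axis), with the ratio of UV over untreated on the vertical axis. Points are replicates 1, 2 and 3, averaged over both dye orientations, the black line is their mean, and the dashed and dotted lines mark 1.3-fold and 2-fold lower. The triangles of replicate 2 lie above the other replicates over most of the lower group.

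The 6 lowest features with values on all arrays were almost equal in their means, from -1.53 to -1.51, which is 2.89-fold to 2.85-fold lower. Feature 35004 had -1.75, -1.50 and -1.77 on direct arrays and -1.47, -1.26 and -1.45 on dye-swap arrays. Feature 35552 had -1.72, -1.48 and -1.83 on the direct and -1.45, -1.21 and -1.51 on the dye-swap arrays. Feature 22065 had -1.68, -1.51 and -1.75 on the direct and -1.51, -1.23 and -1.51 on the dye-swap arrays. For these 3 features the direct array of each replicate was below its dye-swap array, and replicate 2 was the least negative in either orientation.

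The next features in this order reached the same mean in other ways. Feature 14506 had -1.58, -1.25 and -1.58 on direct arrays and -1.58, -1.45 and -1.68 on dye-swap arrays, where the dye-swap arrays were level or lower. Feature 8534 had -1.84, -1.60 and -1.94 on the direct and -1.45, -1.03 and -1.25 on the dye-swap arrays. Feature 20561 had the lowest value of any SOS1 feature, -2.06 on direct arrays 1 and 3, with -1.71 on direct array 2, but only -1.22, -0.79 and -1.23 on the dye-swap arrays. Its direct and dye-swap values did not overlap.

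The 6 highest features with values on all arrays gave no common rise. Feature 6493 had 0.05, 0.09 and -0.03 on direct arrays and -0.10, 0.09 and -0.09 on dye-swap arrays, a mean of 0.0017. Feature 30811 had 0.18, -0.11 and -0.02 on the direct and 0.03, -0.18 and 0.09 on the dye-swap arrays. Features 24862, 1503 and 27921 had means of -0.032, -0.047 and -0.078, with single values from -0.41 to 0.12. All 5 of these features had values on either side of 0. The highest feature, 43961, had -0.12, -0.16 and -0.23 on direct arrays and 2.01, 0.14 and 0.14 on dye-swap arrays, so that its mean of 0.30 rested on 1 array.

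A departure is what remains of a feature's ratio once the mean of all other SOS1 features on that array is taken off, and it shows where features of the gene did not move together. It does not say which of them changed. Past 1.4-fold, the study's fold limit for splicing, 22 of 135 features (16.3%) were lower than the rest of SOS1 and 25 (18.5%) were higher. The study also asked for a z score and a p-value, which were not used here, so these are not its splicing calls. Over all features of genes with 3 or more, 2.17% were lower and 1.84% higher, and as the departures come from the contrast in which SOS1 was taken up, nothing is read from this. The lowest departures belonged to 35004 (-0.73 ± 0.055), 35552 (-0.73 ± 0.10), 22065 (-0.73 ± 0.069) and 14506 (-0.72 ± 0.080; SD, n = 3 replicates each). The highest were those of 6493 (0.82 ± 0.036), 30811 (0.81 ± 0.21), 24862 (0.78 ± 0.086) and 43961 (1.11 ± 0.62).

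With the other features this low, a departure higher past 1.4-fold can only belong to a feature whose own ratio was within the 1.3-fold limit or above it, so the higher departures add nothing to the split of the ratios. Past 2-fold 0 features were lower than the rest and 1 was higher, feature 43961. The count of lower departures fell to 11 when only features with 6 values were used or when the median of the other features was the reference, and the count of higher departures was then 19 and 31.

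The features of SOS1 were spread over a range of ratios. The SD of its 135 feature means was 0.47, the 17th highest of 463 genes with 10 or more features, whose median SD was 0.13. As these means are the ratios with which SOS1 was taken up, nothing is read from this rank. Within the 106 lower features alone the SD was 0.25. The SD over replicates of a single feature was smaller, with a median of 0.12 among the lower features and 0.057 among those within 1.3-fold.

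The order of the lower features was much the same in each replicate but not in each dye orientation. Across the 106 lower features, which share arrays and are not replicates, the means of replicates 1 and 2, 1 and 3, and 2 and 3 correlated at 0.879, 0.947 and 0.903. The direct and dye-swap means of the same features correlated at 0.494. Of the 10 features lowest on the direct arrays, 3 were among the 10 lowest on the dye-swap arrays. Over all 123 features with 6 values the correlation of direct with dye-swap means was 0.770, a value that includes the gap between the lower features and those near 0.

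Replicate 2 was the highest of the 3 replicates in 105 of 123 SOS1 features (85.4%). It was also the highest in 75.5% of all 3880 named features that were lower past 1.3-fold and had 3 replicates, SOS1 included. The 123 SOS1 features include 17 within 1.3-fold, so these shares are not over like sets. The SD over all features was 0.316 and 0.322 on the direct and dye-swap array of replicate 2, against 0.352 to 0.375 on the other arrays. The smaller fall of SOS1 in replicate 2 thus went with a smaller spread of the whole array, and the part of the one in the other was not tested.

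The difference between dye orientations was not used in choosing SOS1, and it was tested. The mean over SOS1 features was -0.88 on direct arrays and -0.74 on dye-swap arrays, a direct minus dye-swap difference of -0.14 (SE 0.025, 3 pairs, limma adjusted p = 0.0121), and the direct array was lower in 3 of 3 replicates. Such a difference was common, as 51.9% of 775 genes passed the same test, 24.6% with direct lower. The SOS1 difference no longer passed without replicate 2 (-0.13, adjusted p = 0.109), without replicate 3 (-0.15, adjusted p = 0.0921) or without the replicate pairing (adjusted p = 0.0945). Over the 123 features with 6 values it was -0.13 (limma adjusted p = 0.0144).

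At the level of features the difference ran both ways. By limma, 51 of 135 SOS1 features (37.8%) were lower on direct than on dye-swap arrays, and 21 (15.6%) were higher. Among all 34301 named features 22.3% were lower and 26.3% higher on direct arrays. Of 106 SOS1 features lower past 1.3-fold, 46.2% were called lower and 14.2% called higher on direct arrays, with a median difference of -0.13. For the 3776 other named features past that limit these were 30.4%, 26.6% and -0.028. Without replicate 2 or without replicate 3, 0 SOS1 features were called by limma, with 63 at an unadjusted p under 0.05 in either case, and 0 of the features of the whole table were called. Without replicate 1, 69 of 130 SOS1 features were called, beside 43% of 32349 named features of the whole table.

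Single features show how far the orientations could part. Feature 20561 was lower on direct arrays by a difference of -0.86 (SE 0.046, limma adjusted p = 0.00136). At the other end, feature 36621 had -0.81, -0.60 and -0.85 on direct arrays and -1.24, -1.37 and -1.32 on dye-swap arrays, a difference of 0.56 (SE 0.079, limma adjusted p = 0.00456). Feature 10348 had -0.87, -0.65 and -0.76 on the direct and -1.37, -1.24 and -1.28 on the dye-swap arrays (difference 0.54, SE 0.046, limma adjusted p = 0.00168). The groups did not overlap in any of these, and all 6 values of each were below 0. Features 36621 and 10348 were chosen after their values were seen. In 6 of 123 features the direct and dye-swap means had opposite signs.

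**Figure D3:**
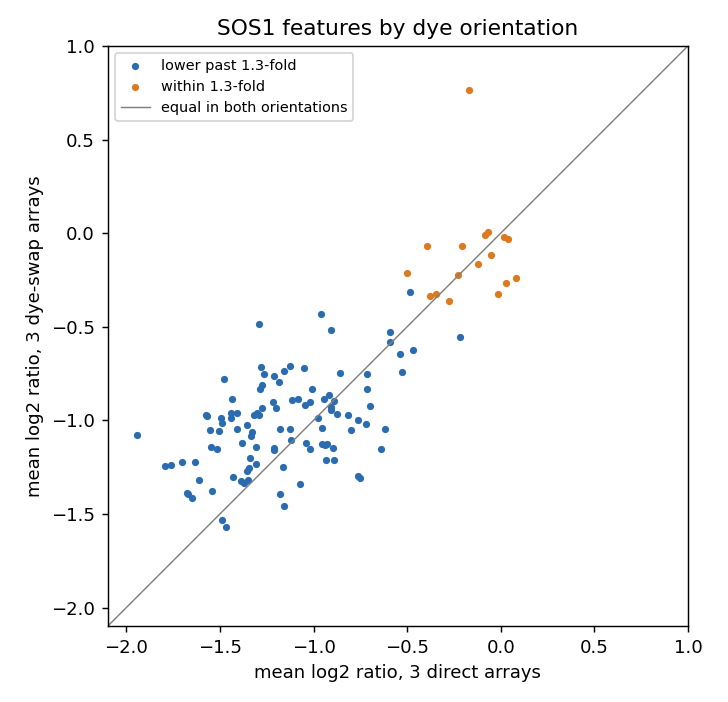
Mean log2 ratio of UV over untreated on the 3 direct arrays (horizontal axis) and on the 3 dye-swap arrays (vertical axis) for the 123 SOS1 features with 6 values. Blue features were lower past 1.3-fold, orange ones lay within it, and the grey line marks equal values. The 2 groups are separate on both axes for most features, while the blue points scatter widely about the line (r = 0.494).

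The genes nearest to SOS1 were sought among 462 other genes with 10 or more features, by the root mean square difference of their 6 array means from those of SOS1. ATG5, which is needed to form autophagosomes, was nearest (0.115), followed by the stress-induced kinase gene PLK2 (0.124), the mitotic kinase gene AURKA (0.126), the death receptor adaptor FADD (0.141) and the ubiquitin ligase gene TRAF6 (0.147). Their gene ratios were -0.71, -0.91, -0.70, -0.73 and -0.67. This likeness rests on 6 values a gene and says only that the mean falls were of similar size.

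The features of each of these genes were more widely spread than those of SOS1. The SD over feature means was 0.465 in SOS1, against 0.51 in ATG5, 0.537 in PLK2, 0.702 in AURKA, 0.705 in FADD and 0.626 in TRAF6. In SOS1 29 of 135 features (21.5%) lay within 1.3-fold of 0. The shares were 29.1% in ATG5, 26.7% in PLK2, 40.0% in AURKA, 42.4% in FADD and 42.6% in TRAF6. Among the 42 genes with 10 or more features whose mean was lower past 1.3-fold, this share ran from 7.02% to 62.5% with a median of 37.0%, and SOS1 had the seventh smallest. The lowest single feature was at -1.53 in SOS1, -1.63 in FADD, -1.78 in PLK2, -2.32 in TRAF6, -2.40 in AURKA and -2.93 in ATG5. These SDs, shares and lowest values were not tested.

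**Figure D4:**
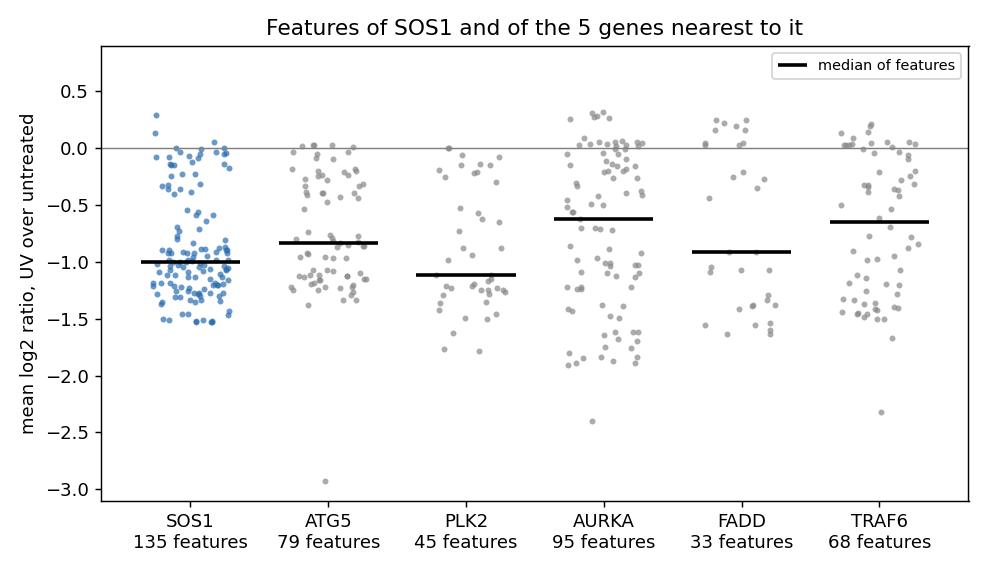
Mean log2 ratio of UV over untreated (vertical axis) of each feature of SOS1 and of the 5 genes with the most similar array means (horizontal axis, with the number of features). Points are features and black bars their medians, at -1.003 for SOS1 and from -1.12 to -0.63 for the others. Each gene has features near 0 beside its lower ones.

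Genes that act with SOS1 were then compared, from 4 lists of 120 genes, of which 28 were measured. Gene ratios, averaged over features, were tested by limma over all 775 genes. Of the 28 genes 11 were lower and 11 higher, or 39.3% each way, against 41.4% lower and 30.3% higher among all genes tested. Their median ratio was 0.035, against -0.027 over all genes. With a fold over 1.3 as well, 7 were lower and 0 higher. Among all named features 11.7% were lower and 2.32% higher past 1.3-fold. Those are single features with no p-value, so they are not a like background for these gene counts. Without replicate 3, 8 of the 28 genes were lower and 3 higher, and without replicate 1, 9 were lower and 7 higher. No share over all genes was taken under these settings, so nothing is read from these counts.

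Upstream of SOS1, receptors and adaptors showed small rises or none. Of 8 measured genes 5 rose, 0 fell and 3 did not pass, with a list median of 0.083. These calls are on the mean of both dye orientations. PTPN11, named after its values were seen, had a mean rise of 0.14 (limma adjusted p = 0.0131). It was at -0.12, 0.012 and -0.10 on direct arrays and at 0.32, 0.39 and 0.33 on dye-swap arrays. Among all genes tested 30.3% were called higher and 41.4% lower. The receptor tyrosine kinase gene ERBB2 rose most, by 0.16 (SE 0.024, limma adjusted p = 0.00642), a call that was lost without replicate 3 (adjusted p = 0.0667). GRB2, whose product carries SOS1 to receptors, was at 0.00092, 0.025 and 0.017 on direct arrays and at 0.14, 0.16 and 0.14 on dye-swap arrays. It was therefore above 0 mainly on the dye-swap arrays, and its mean rise of 0.082 (SE 0.017, limma adjusted p = 0.0138) was lost with direct arrays alone (adjusted p = 0.631), without replicate 1 (0.106), without replicate 3 (0.124) and in a fit of 6 arrays with no replicate block (0.0532).

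Among GTPases and their regulators 3 genes were measured. HRAS, a Ras protein on which SOS1 acts, was at -0.024, 0.019 and 0.024 on direct arrays and at -0.25, -0.29 and -0.31 on dye-swap arrays. Its fall of 0.14 (SE 0.016, limma adjusted p = 0.00295) was seen on the dye-swap arrays, while the direct arrays gave 0.0064 (adjusted p = 0.837). The call was lost without replicate 3 (adjusted p = 0.0512) and with no replicate block (0.0802). By the median of its features HRAS was at 0.014. CDC42, a GTPase that acts on the actin skeleton, with 1 feature, rose by 0.14 (SE 0.032, limma adjusted p = 0.0192), which did not pass without replicate 3 (0.0760). NF1, which turns Ras off, was at 0.028 (SE 0.018) over 227 features and did not pass (limma adjusted p = 0.229).

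Downstream, kinases and targets of the ERK arm moved in both directions. Of 14 genes 7 fell, 5 rose and 2 did not pass, with a list median of -0.022. These are 50% lower and 35.7% higher, near the 41.4% and 30.3% of all genes tested. The transcription factor gene ETS2 (1 feature) was at -1.13, -1.13 and -1.06 on direct arrays and at -1.25, -1.39 and -1.40 on dye-swap arrays, and fell by 1.23 on the log2 scale (SE 0.021, limma adjusted p = 5.7e-05). FOS, an early target of ERK signalling, had the largest rise (0.28, SE 0.024, limma adjusted p = 0.00125). In the same list MYC (-0.70, 34 features), JUN (-0.67, 1 feature) and DUSP1 (-0.48, 36 features) were called lower. MYC, JUN and DUSP1 were named after their values were seen. Of the kinase genes set as close partners, MAPK3, which encodes ERK1, rose by 0.19 (SE 0.018, limma adjusted p = 0.00171), and MAP2K1, which encodes MEK1, fell by 0.070 (SE 0.016, limma adjusted p = 0.0208). The call of MAP2K1 was lost on the direct arrays alone (adjusted p = 0.143) and without replicate 1 (0.144) or 3 (0.161).

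In the PI3K and AKT arm 3 of 18 listed genes were measured and all 3 fell, with a list median of -0.54. Among all genes tested 41.4% were called lower, and with 3 genes nothing is read about the arm. RPS6KB1, the S6 kinase gene, was at -1.03, -0.57 and -0.73 on direct arrays and at -1.42, -1.18 and -1.53 on dye-swap arrays, and its mean was -1.08 (SE 0.076, limma adjusted p = 0.000755, 1 feature). PIK3CA, the catalytic subunit of PI3 kinase, was at -0.73, -0.60 and -0.68 on the direct and at -0.41, -0.34 and -0.44 on the dye-swap arrays (mean -0.54, SE 0.027, limma adjusted p = 0.000363, 45 features). FOXO3, a transcription factor held back by AKT, was at -0.40 (SE 0.034, 1 feature, limma adjusted p = 0.00124). PIK3CA and FOXO3 were named after their values were seen, to complete the count.

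**Figure D5:**
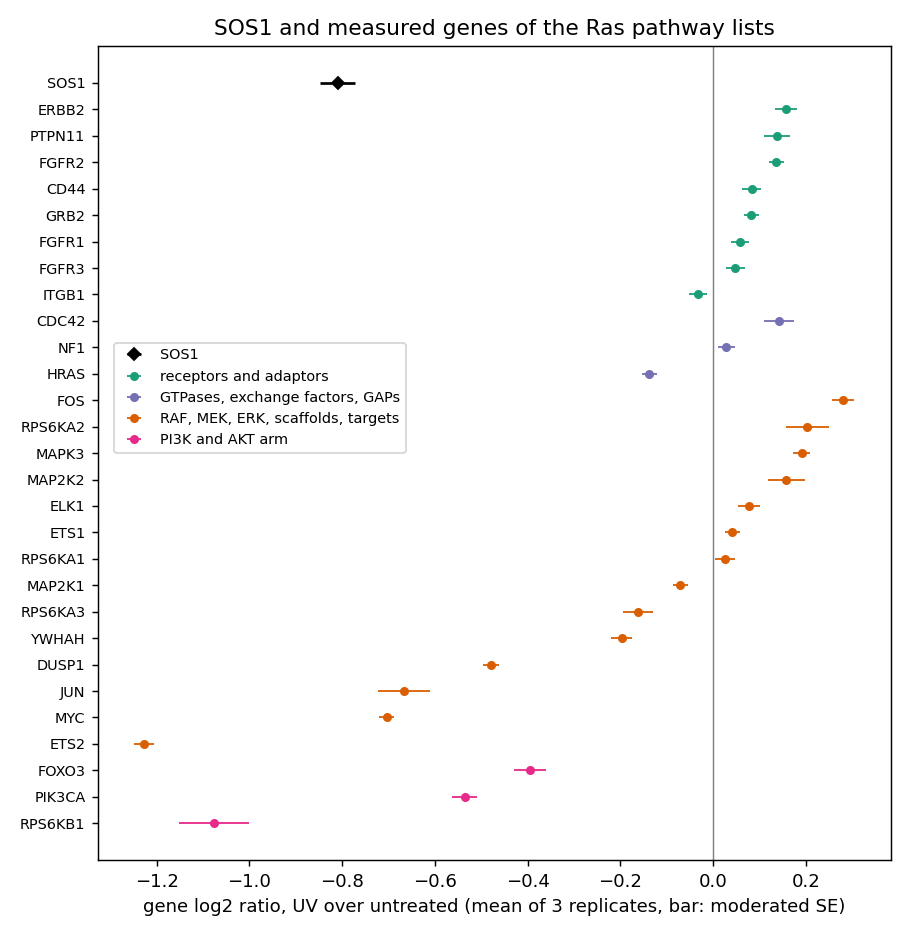
Gene log2 ratio of UV over untreated (horizontal axis) for SOS1 and the 28 measured genes of the 4 pathway lists (vertical axis), as the mean of 3 replicates with the moderated SE as bars. SOS1 lies at -0.81, lower than each receptor and adaptor gene shown, and ETS2 (-1.23) and RPS6KB1 (-1.08) are the genes below it.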

How the data were processed

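The deposited values were log2 ratios of 6 two-colour arrays, 1 column per array, which the authors had background-corrected with normexp and normalized by LOWESS. They were taken as UV over untreated, from the dyes in the labels and because columns of both orientations correlated above 0 (0.538 to 0.663), so that the sign of the dye-swap columns was already set. The sign was also set against the study's supplementary gene table for Hep3B, whose values were not used as data. This was an informal check whose outcome is not given here, so the direction is not rested on it. Empty cells made up 15.1% to 19.2% of a column. Scanner signal was not used here. Features were named from the platform annotation, updated through RefSeq (GRCh38.p14) by accession (38971), symbol (978) or synonym (197), and 5074 had no name. No source used here gives the array's genome build.

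A gene value was the mean over its features on an array. Both arrays of a replicate were averaged, since the design text gives them the same biological replicate. Deviations from the orientation means correlated at -0.0070, 0.452 and 0.101 for replicates 1, 2 and 3 over all features, and at 0.105, 0.324 and 0.0743 over SOS1 features. Direct array 1 correlated better with dye-swap array 3 (0.425 over all features). Tests used limma 3.58.1 (R 4.3.3), two-sided, with Benjamini-Hochberg adjustment over the whole table and an adjusted p of 0.05. Their SE is moderated, so it draws on the spread between replicates of all genes or features in the fit. It holds no other source of error. SOS1 ratios were not tested. The procedures were tested on simulated data.

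Features named were the 6 lowest and 6 highest by ratio and the 4 lowest and 4 highest by departure among those with 6 values. Pathway genes named were the called gene with the largest fall and rise of each list and those of 13 close partners that were measured (5). The members and lists were chosen with earlier results of these data known. Of 8 markers of blood, endothelial and fibroblast cells only CD14 was measured (0.25). Alternatives covered the arrays and replicates used, scaling, missing values, the summary of a gene, thresholds and the replicate block.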

Additional observations from a re-analysis of the deposited data

Results flagged for a closer look

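The ratio of SOS1 differed between direct and dye-swap arrays by -0.145 (limma adjusted p = 0.0121). The features meant here are those named by rank of ratio or departure. Among them the same test passed for 20561 (-0.863), 8534 (-0.55), 35552 (-0.287), 35004 (-0.28) and 22065 (-0.23), which were lower on direct arrays. It also passed for 27921 (0.323), which was higher. Features 36621 (0.557) and 10348 (0.537), named after their values were seen, passed and were higher too. Among all named features 22.3% passed with direct lower and 26.3% with direct higher. Among the pathway genes named by rule the test passed for GRB2 (-0.135), which was lower on direct arrays. It also passed for RPS6KB1 (0.60), HRAS (0.288), ETS2 (0.24), FOS (0.138) and MAPK3 (0.0846), which were higher on direct arrays. Of the genes named after their values were seen, PTPN11 (-0.418), PIK3CA (-0.27) and DUSP1 (0.32) passed. The same test was passed by 51.9% of all genes.

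Feature 43961 had 1 array far from the other 5, dye-swap array 1 at 2.01, with a gap of 0.835 of the range of its 6 values. Among all 123 SOS1 features with 6 values, 4 had a gap past the limit of Dixon's ratio, which is the gap over the range. The other features were 38282 (a gap of 0.871 of a narrow range, -1.17 on dye-swap array 1 against -0.90 to -0.86), 20321 (0.687, direct array 2 at 0.20 against -1.59 to -1.03) and 11535 (0.682, direct array 2 at -0.43). Without these features the SOS1 ratio was -0.82. The limit of Dixon's ratio is set to be passed by about 1 in 20 sets of independent values from a single group. The 6 values here come from direct and dye-swap arrays, which differed in many SOS1 features, so that rate does not apply. No share over all named features was taken, so nothing is read from the count of 4.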

How the results depend on the processing

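The fall of SOS1 kept its direction under every alternative run, from -0.96 to -0.74. It was -0.96 with features measured on all 6 arrays and -0.95 by the median of features. Features lower past 1.3-fold numbered 104 to 108 under the alternatives of arrays, replicates, scaling and missing values, and 68 past 2-fold. Lower departures numbered 11 with features measured on all 6 arrays or with the median of the other features as reference, 40 past 1.3-fold and 0 past 2-fold, where 1 higher departure was left. The spread over features was 0.55 on the direct arrays alone. The orientation difference of SOS1 ran from -0.157 to -0.131 with a replicate left out. With no replicate block it was -0.145 without passing (limma adjusted p = 0.0945). The count of SOS1 features called ran from 0 to 69 with a replicate left out (the cause was not tested). The share called among all named features then ran from 0% to 43%. With no block 65 SOS1 features were called, and no share over all features was taken. Pathway genes called higher ran from 3 to 15 with a replicate left out, and 7 were lower and 0 higher with 1.3-fold as a further limit. No share over all genes was taken beside these counts. With 6 arrays 11 were lower and 13 higher with the replicate block, and 10 and 10 without it. HRAS turned to 0.0064 on the direct arrays alone and to 0.014 by the median of features. Leaving out features with 1 array apart, and testing the orientation on features with 6 values, were chosen after seeing the data. Signal over background was not used here, so whether dim features draw SOS1 towards 0 was not tested.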
